A study of Mus musculus with 4 samples.

Results

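Cdh2, Cdh4, Cdh6, Cdh11, Cdh13, Cdh15 and Ncam1 are the 7 adhesion genes described here, out of 32285 genes in each count file. They were taken by gene symbol, and all 7 were present. The cells were muscle stem cells from skeletal muscle of MyoD-KI mice, grown for 5 days in growth medium with fetal bovine serum and sorted by flow cytometry as MyoD-tdTomato high, where the fluorescence reports MyoD. The labels give 1 group with 4 replicates, prepared with 10x Genomics 3′ v3.1 kits, and do not say whether the replicates are separate cultures or animals. The sorted MyoD-tdTomato low cells were not analysed here.

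Cadherins are calcium-dependent adhesion proteins that bind the same or a related cadherin on the next cell and tie it to actin through catenins. Ncam1 is an adhesion protein of the immunoglobulin family that works without calcium and carries polysialic acid in immature cells. In muscle, M-cadherin (Cdh15) and N-cadherin (Cdh2) hold satellite cells, myoblasts and fusing myocytes together, and Ncam1 is found on satellite cells and young myotubes. A myoblast that leaves the cycle switches on myogenin (Myog) and then sarcomere genes such as Acta1 (skeletal actin) and Myh3 (embryonic myosin).

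The 4 files held 5950 to 5974 cell barcodes and 62627341 to 68898900 UMIs (counted RNA molecules) each. Every pair of files shared 5946 to 5965 barcodes, and 99.7% to 99.9% of the kept cells matched their own barcode in the other file better than 100 other barcodes. The files were therefore counted as 1 sample of the same cells, with no test between groups of cells and no p-value. The spread over files shows only how well the libraries repeat. Kept cells (5481 of 5944 barcodes found in all files) had on average at least 1000 genes and under 10% mitochondrial UMIs. Levels are UMIs per 1000000 UMIs (CPM), summed over the cells of a class in each file and averaged over the files. Brackets give 95% intervals. For levels and ratios they cover the counting error of 1 file and leave out the spread between cells and cultures. For shares of cells they are binomial intervals over the cells of this 1 sample. Cells are not replicates, so these also leave out the spread between cultures. By Myog level, 2572 cells lay under 400 CPM, 579 at 400 to 1500 CPM and 2330 at 1500 CPM or more. Pax7 (the satellite cell factor) was at 104 CPM in the first class and 10.4 CPM in the last, and Myod1 at 364 and 612 CPM. Endothelial, immune and glial marker lists of 4 genes each summed to 0.584 to 2.26 CPM in each Myog class. Of 7 fibroblast markers, only Col3a1 and Ly6a were above 1 CPM in cells with low Myog, with Pdgfra at 0.839 CPM, Dcn at 0.373 CPM and Lum at 0.008 CPM.

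The 7 genes span very different lengths, which matters below. In GENCODE M21 on GRCm38, Cdh15 (ENSMUSG00000031962) covers 19.4 kb at chr8:122847966-122867397 on the plus strand. Cdh6 (ENSMUSG00000039385) covers 145 kb at chr15:13028701-13173675 on the minus strand, and Cdh11 (ENSMUSG00000031673) 154 kb at chr8:102632095-102785642 on the minus strand. Cdh2 (ENSMUSG00000024304) covers 220 kb. Ncam1 (ENSMUSG00000039542) covers 297 kb at chr9:49502136-49798925 on the minus strand. Cdh4 (ENSMUSG00000000305) covers 457 kb at chr2:179442431-179899373, and Cdh13 (ENSMUSG00000031841) 1041 kb at chr8:118283733-119324921, both on the plus strand. The 3 on chromosome 8 are far apart and not in 1 cluster. All are annotated as protein coding.

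Across the onset of myogenin, Cdh6 and Cdh11 went down, Ncam1 went up by less than 2-fold, and Cdh2, Cdh13 and Cdh15 stayed within 1.12-fold. The comparison set cells with at least 1500 CPM of Myog against cells under 400 CPM, and a gene was called at a 2-fold difference of CPM plus 1 in the mean of the files. Unless stated, all folds and log2 ratios given are of CPM plus 1, which makes them smaller for scarce genes than folds of the CPM values printed. Among 12895 genes with at least 50 UMIs in every file, 17.2% were called lower, 7.71% higher and 24.9% in either direction. Of the 7 adhesion genes, all of which passed that filter, 2 were called lower and 0 higher. The filter counted UMIs over all kept cells. Cdh6 passed it mostly through the class where it is high, with means of 580 UMIs per file at low Myog and 35 at high Myog. Its call and rank rest on this. The median log2 ratio was -0.28 over all genes and -0.16 over the 7.

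Cdh6, K-cadherin, is a type II cadherin known from kidney and neural crest. It stood at 18.7, 19.5, 18.9 and 19.7 CPM in the 4 files where Myog was low, at 2.60, 2.19, 2.12 and 4.11 CPM in the middle class, and at 1.04, 1.55, 1.38 and 0.983 CPM where Myog was high. The classes did not overlap over the files. On CPM plus 1 the last was 9.08-fold lower than the first, a log2 ratio of -3.18 (-3.44 to -2.88). With 0.1 added in place of 1, the log2 ratio was -3.87. Only 0.0853% of all genes tested had a lower ratio. With every cell thinned to 5000 UMIs, the share of cells with a Cdh6 UMI was 6.58% (5.62 to 7.64), 1.45% and 0.445% (0.214 to 0.817) in the 3 classes, and 10.9%, 2.85% and 0.933% before thinning. No cell class without muscle markers was present to give a free-RNA background. The lowest share, 0.159%, was in the latest myocytes described below, and shares of that size cannot be told apart from such a background.

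RefSeq promoter windows (GRCm38.p6) were found for 2 of the 7 genes, Cdh6 and Cdh15. The Cdh15 window lies within the annotated first exon of GENCODE M21 and is not shown. The 250 bases before the Cdh6 start are shown because Cdh6 has the largest decline of the 7, at chr15:13173676-13173925 on the minus strand. Capitals mark the match to CANNTG, the E-box letters that MyoD, myogenin and many other basic helix-loop-helix factors bind. The motif is its own reverse complement, so 1 search covers both strands.
Cdh6 upstream: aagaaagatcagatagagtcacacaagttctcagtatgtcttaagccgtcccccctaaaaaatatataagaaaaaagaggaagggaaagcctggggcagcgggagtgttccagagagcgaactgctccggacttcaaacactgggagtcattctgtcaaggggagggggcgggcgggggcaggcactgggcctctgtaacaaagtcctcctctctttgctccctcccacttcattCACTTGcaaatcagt
The single match, CACTTG, begins 15 bases before the start. Of 32841 RefSeq windows of the same length, 66.2% hold at least 1 such match. The form CAGCTG was in 13.0% of windows and not in this one. These matches describe letters only.

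Cdh11, OB-cadherin, is a type II cadherin of osteoblasts and other mesenchymal cells. It stood at 184, 184, 182 and 184 CPM with low Myog, at 134, 124, 139 and 132 CPM in the middle class, and at 48.2, 50.2, 50.7 and 51.7 CPM with high Myog. The file values of the 3 classes did not overlap, and the last was 3.61-fold lower than the first, with a log2 ratio of -1.85 (-1.94 to -1.77). The thinned share of cells with a Cdh11 UMI was 42.5% (40.5 to 44.5), 35.5% and 16.0% (14.5 to 17.6). Summed fibroblast markers moved the same way, from 214 CPM through 133 CPM to 66.1 CPM (211 to 215 against 64.4 to 67.6 over files), and pericyte markers from 108 CPM to 38.6 CPM. Within the pericyte list, Notch3 went from 88.6 to 12.01 CPM while Abcc9 went from 0.795 to 24.4 CPM. Their part in the Cdh11 difference was not tested.

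Ncam1 moved the other way. It stood at 989, 994, 985 and 983 CPM with low Myog, at 1500, 1506, 1485 and 1516 CPM in the middle class, and at 1806, 1806, 1799 and 1791 CPM with high Myog. That is 1.82-fold, a log2 ratio of 0.87 (0.85 to 0.89), above 91.3% of all genes tested though short of 2-fold. Nearly every cell had a UMI after thinning, 94.6% with low Myog and 98.98% with high Myog.

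Cdh15, the M-cadherin of satellite cells and myoblasts, stood at 83.7, 83.5, 78.6 and 81.6 CPM with low Myog and at 75.9, 75.5, 71.5 and 74.2 CPM with high Myog. The file values did not overlap, but the log2 ratio was only -0.14 (-0.22 to -0.06). Cdh2, N-cadherin, had a log2 ratio of -0.08 (-0.13 to -0.04), from 229 to 237 CPM against 217 to 222 CPM over the files. Cdh13, T-cadherin, is held in the membrane by a lipid anchor and binds no catenins. Its log2 ratio was -0.16 (-0.19 to -0.14), from 766 to 771 CPM against 679 to 694 CPM. Relative to the median gene these 3 lay slightly higher, above 57.6% to 63.3% of all genes, and scaling by the median ratio put them at 0.17, 0.23 and 0.15, respectively, and Ncam1 at 1.18. Cdh4, R-cadherin, was seen in a mean of 47.0 UMIs per file with low Myog and 27.2 with high Myog, at 1.55 and 0.964 CPM. Its interval, -0.69 to 0.02 on the log2 scale, includes 0, so no difference was detectable at this depth.

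Finer Myog steps separated the 2 declining genes. Cdh6 was at 24.3 CPM in the 361 cells with no Myog UMI in any file, 25.3 CPM above 0 to 50 CPM of Myog and 19.4 CPM at 50 to 100 CPM. It then dropped to 9.74 CPM at 100 to 200 CPM and 7.48 CPM at 200 to 400 CPM of Myog, 29.6% of its level above 0 to 50 CPM. Cdh11 in that same step of 200 to 400 CPM was at 202 CPM, which is 121% of its level above 0 to 50 CPM. It passed below that level only from 400 CPM of Myog, with 150, 120, 78.3, 36.5 and 19.8 CPM in the 5 steps up to 6000 CPM or more, and from 200 to 400 CPM onward no 2 neighbouring steps had overlapping intervals. In cells without any Myog UMI Cdh11 stood at 229 CPM against 167 CPM in the next step, and Cdh15 at 101 CPM against 74.8 CPM. Intervals of both pairs were apart. Those 361 cells had a median of 8009 UMIs against 11965.

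Ncam1 was higher at each step from 50 to 100 CPM of Myog (972 CPM) to 3000 to 6000 CPM (1878 CPM), with no overlap between neighbours, and then stood at 1403 CPM in the 334 cells with 6000 CPM or more. Cdh13 was highest at 800 to 1500 CPM of Myog (926 CPM, overlapping with 905 CPM in the step before) and lowest at the top step (398 CPM). Cdh2 had its highest and lowest values in the same steps, 269 CPM (overlapping with 248 CPM in the step after) and 130 CPM. Cdh15 was at 91.6 and 63.1 CPM in these steps. Top-step cells differed in depth too, with a median of 9549 UMIs, and 16.2% of them held under 2000 CPM of the nuclear RNA Malat1 against 7.82% in the step before. The part of this in the lower values was not tested.

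**Figure D1:**
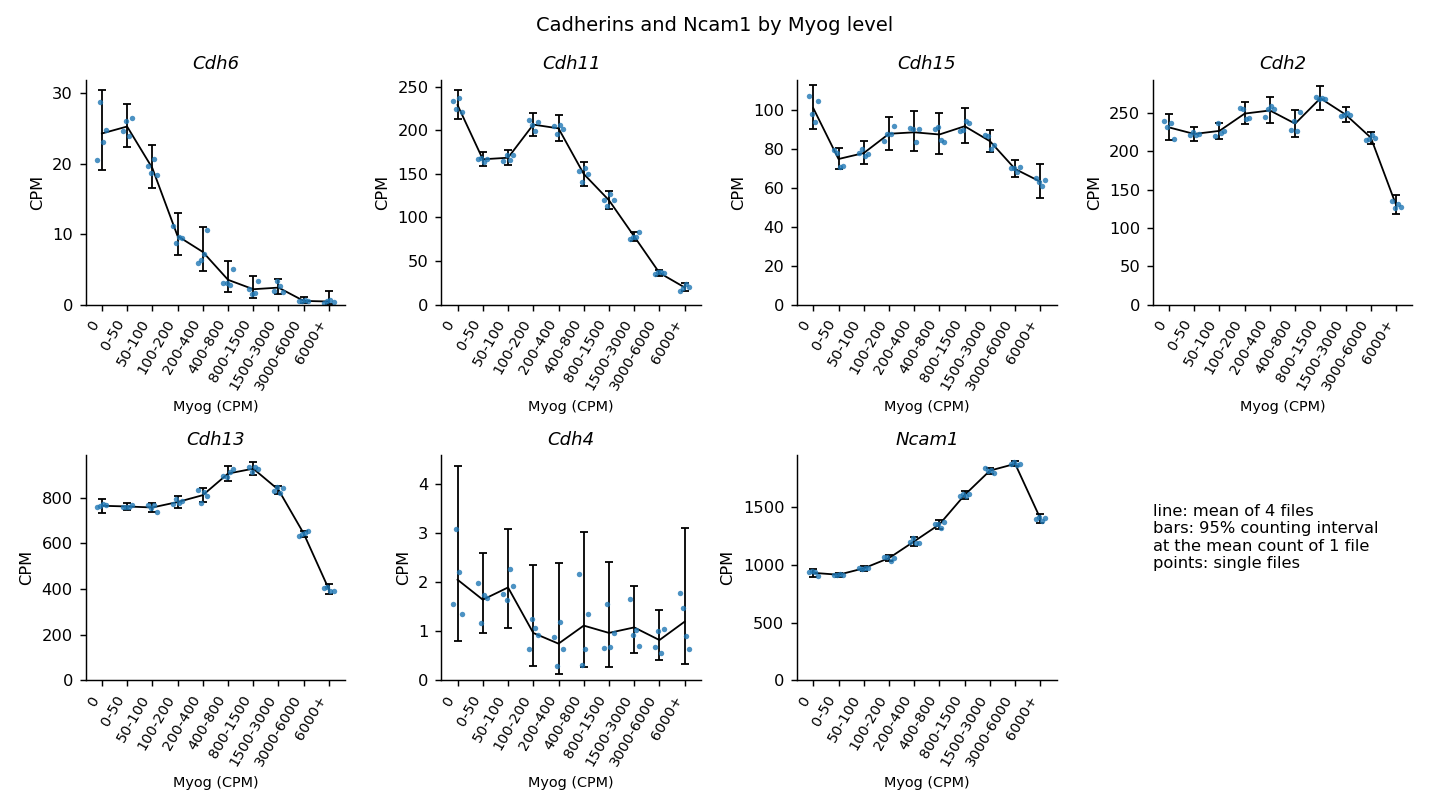
Level of each gene (CPM) in 10 classes of cells by Myog level (CPM); lines are means of 4 files, bars 95% counting intervals at the mean count of 1 file, points single files. Cdh6 is below 10 CPM from 100 CPM of Myog on, Cdh11 is at 167 to 229 CPM up to 400 CPM of Myog, and Ncam1 climbs to 1878 CPM before the last class.

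Where Myog was low, cells with a Pax7 UMI in any file (2221) had more Cdh6 than cells with none (351). Cdh6 was at 20.1, 20.8, 20.3 and 21.04 CPM with Pax7 and at 6.95, 8.40, 7.09 and 8.58 CPM without it. The groups did not overlap, and the ratio was 2.47-fold on CPM plus 1 (log2 1.31, 0.76 to 1.92). Among all genes tested 1.64% were called higher with Pax7, 0.271% lower and 1.92% in either direction. Of the adhesion genes 1, Cdh6, was called, and 99.7% of all genes had a lower ratio. Cdh13 had a log2 ratio of 0.64 (799 against 514 CPM), Cdh11 0.62 (191 against 124 CPM), Ncam1 0.36 (1011 against 790 CPM) and Cdh2 0.31 (237 against 191 CPM), beside a median of 0.17 over all genes. Cdh15 had 0.07 (-0.12 to 0.26), and the interval of Cdh4 also included 0.

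The Pax7 split moved with depth and nuclear RNA. Cells with Pax7 had a median of 11277 UMIs and 12.7% of them had under 2000 CPM of Malat1. Without Pax7 these values were 8845 UMIs and 44.7%. Summed pericyte markers were at 114 CPM (113 to 118 over files) with Pax7 and 53.6 CPM (49.5 to 59.2) without, and fibroblast markers at 216 and 193 CPM. Of the latter, Col3a1 was at 163 and 138 CPM and Ly6a at 51.45 and 51.54 CPM. Summed markers of differentiating myocytes were at 1299 CPM with Pax7 and 2048 CPM without. Among them, Acta1 was at 86.3 and 276 CPM and Myh3 at 18.5 and 79.9 CPM. The part of all these markers in the Cdh6 and Cdh11 ratios was not tested. Without the Malat1-poor cells Cdh6 stayed at 1.12, whereas Cdh11 was at 0.28, Cdh13 at 0.18, Ncam1 at 0.01 and Cdh2 at -0.03. With Pax7 called again at 5000 UMIs in every cell and the Malat1-poor cells left out, Cdh6 was at 1.43, Cdh11 at 0.54 and Cdh15 at 0.38. Thinning alone put Cdh15 at 0.32. Among non-cycling cells Cdh11 also reached the 2-fold threshold (log2 1.03). In that class Cdh11 stood at 279 CPM (276 to 282 over files) with Pax7 and 136 CPM (131 to 141) without. Acta1 was there at 94.6 CPM with Pax7 and 388 CPM without.

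Cells were called cycling where Mki67 plus Top2a (a proliferation antigen and a topoisomerase of dividing cells) reached 200 CPM. With low Myog, Cdh11 was at 143, 144, 139 and 143 CPM in 1399 cycling cells and at 255, 252, 256 and 253 CPM in 1173 non-cycling cells. The files were far apart between the classes, and cycling cells were 1.78-fold lower (log2 -0.84, -0.91 to -0.76), a ratio below that of all but 2.52% of genes. None of the 7 genes reached 2-fold (0 called), where 3.93% of all genes were called higher, 1.26% lower and 5.19% in either direction. Cdh15 had -0.30 (-0.42 to -0.19), Cdh2 -0.29, Ncam1 -0.21 and Cdh6 -0.19 (-0.42 to 0.05), with a median of -0.02 over all genes. Cdh13 was at 777 against 754 CPM, and its small ratio (0.04) turned to -0.04 without Malat1-poor cells. Malat1 was at 6408 CPM in cycling and 10214 CPM in non-cycling cells, and without the Malat1-poor cells the Cdh11 ratio was -0.93. Summed fibroblast markers were at 191 CPM in cycling and 252 CPM in non-cycling cells, and pericyte markers at 101 and 120 CPM. Within the pericyte list the difference lay mostly in Rgs5, at 3.55 CPM in cycling and 19.5 CPM in non-cycling cells. Notch3 was close, at 87.3 and 90.8 CPM, and Pdgfrb went slightly the other way, at 8.9965 and 8.26 CPM. The part of all these markers in the Cdh11 ratio was not tested.

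Crossing the 3 splits gave 12 cell groups of 61 to 1711 cells. Cdh11 was highest in non-cycling cells with Pax7 and low Myog (279 CPM, 268 to 290). The next group in order, non-cycling cells with Pax7 and middle Myog, had 182 CPM (163 to 202). It was lowest in non-cycling cells with high Myog and no Pax7 (36.0 CPM). In cells with high Myog, the groups with Pax7 still had 104 CPM (cycling) and 82.2 CPM (non-cycling) against 50.7 and 36.0 CPM without Pax7. Cdh6 kept the same order at high Myog, with 5.95 and 3.20 CPM where Pax7 was detected and 0.539 and 0.264 CPM where it was not, the last from 5.00 UMIs per file in 1711 cells. Intervals with and without Pax7 were apart among the non-cycling cells (1.76 to 5.45 against 0.0849 to 0.610 CPM) and among the cycling cells (3.35 to 9.86 against 0.0259 to 2.62 CPM). These Pax7-positive cells with high Myog had more UMIs per cell, medians of 18909 and 13132 against 11273 and 10683, and doublets were not called, so a mixed droplet of a progenitor and a myocyte cannot be told apart from 1 cell with both.

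Ncam1 was lower in cycling than in non-cycling cells in 5 of the 6 pairs of groups, the widest gap being 1291 against 1896 CPM with high Myog and no Pax7. The exception was Myog-low cells without Pax7, at 826 and 767 CPM, whose intervals overlapped. Malat1 was lower in the cycling group of all 6 pairs, and its part in the Ncam1 values was not tested. Cdh2 was highest in non-cycling cells with Pax7 and middle Myog, 325 CPM (300 to 351), followed by the same kind of cell with low Myog at 277 CPM (266 to 288). Cdh15 ranged only from 65.9 to 99.3 CPM over the 12 groups. Within cells without Pax7, the Myog comparison gave log2 1.21 for Ncam1, past 2-fold, and put Cdh13 at 0.35 and Cdh2 at 0.19, against -2.76 for Cdh6 and -1.70 for Cdh11. Those 351 Myog-low cells are the group in which 44.7% were Malat1-poor.

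**Figure D2:**
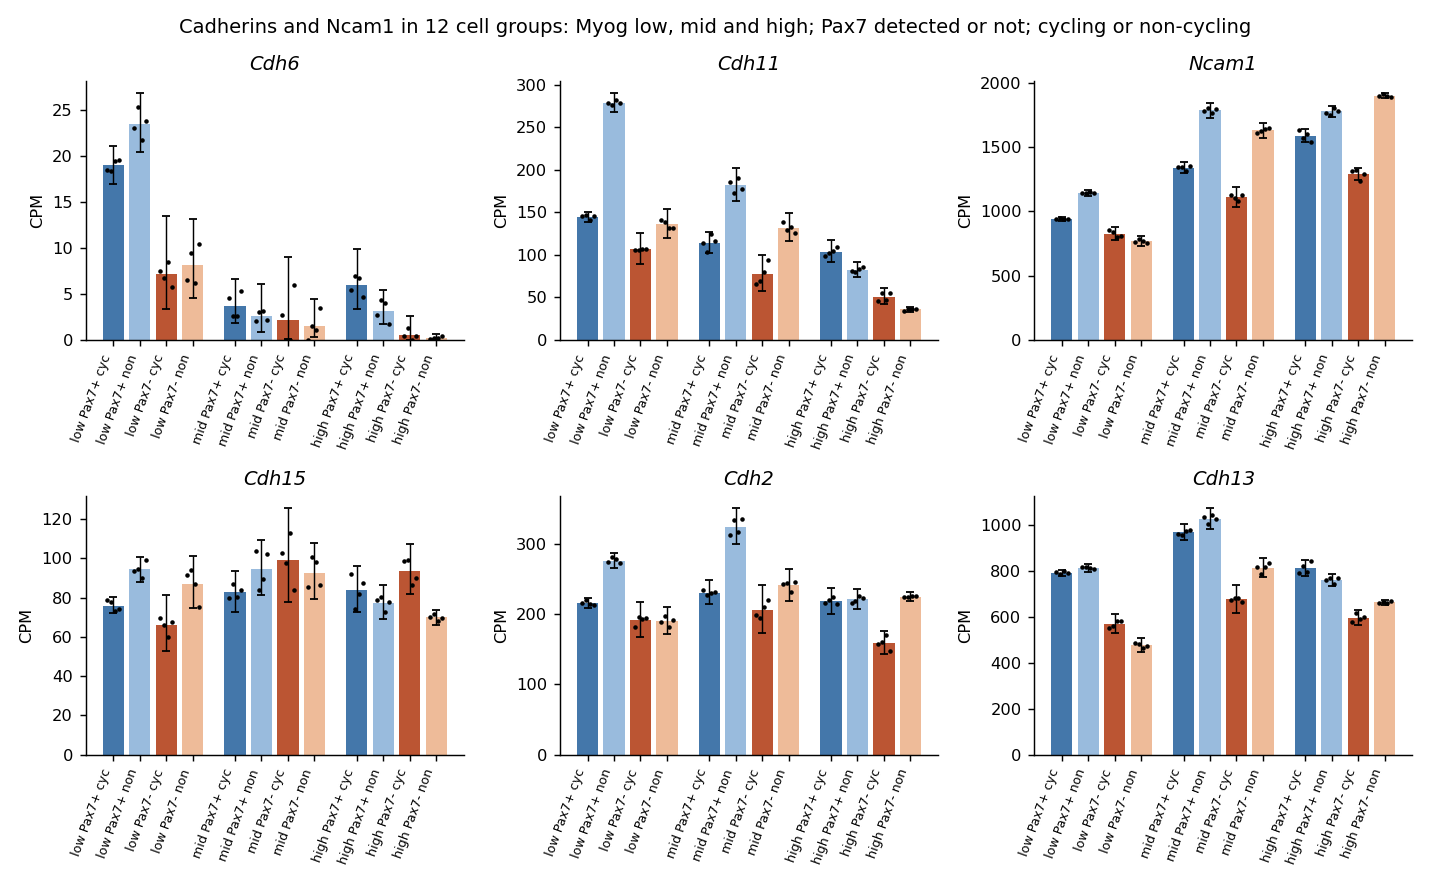
Level (CPM) of 6 genes in 12 groups of cells; low, mid and high are under 400, 400 to 1500 and at least 1500 CPM of Myog, cyc and non are cycling and non-cycling, bars are means of 4 files with 95% counting intervals and dots are single files. Cdh11 peaks at 279 CPM in Pax7-positive non-cycling cells with low Myog, and Ncam1 at 1896 CPM in Pax7-negative non-cycling cells with high Myog.

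Among the 2330 cells with high Myog, sarcomere expression split the cadherins again. Early myocytes (388 cells) had under 500 CPM of Acta1 plus Myh3, 981 cells had 500 to 5000 CPM, and late myocytes (961 cells) had at least 5000 CPM. Early and late are names of these classes only, and the early class had more RNA of cycling genes and Pax7, as given below. Cdh11 was at 103, 110, 102 and 113 CPM in early and 26.8, 24.9, 26.8 and 26.0 CPM in late myocytes, with 56.7 CPM between them. The late level was 3.98-fold lower (log2 -1.99, -2.20 to -1.79). Of all genes 14.5% were called lower, 6.13% higher and 20.6% in either direction, and of the 7 adhesion genes 1 was called, Cdh11. Summed fibroblast markers had 120, 79.0 and 37.0 CPM in these classes and pericyte markers 33.2, 39.0 and 40.0 CPM. Within the pericyte list, Notch3 went from 20.5 CPM in early to 6.49 CPM in late myocytes and Rgs5 from 1.93 to 0.524 CPM. Abcc9 went the other way, from 9.55 to 31.7 CPM. The part of these markers in the difference was not tested.

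M-cadherin and N-cadherin were ordered in opposite ways over the 3 classes. Cdh15 was at 103, 104, 92.6 and 113 CPM in early, 85.0 CPM in middle and 56.1, 55.7, 52.1 and 56.7 CPM in late myocytes, 1.85-fold lower (log2 -0.89, -1.06 to -0.71). Cdh2 was at 170, 162, 176 and 159 CPM in early, 197 CPM in middle and 246, 257, 259 and 258 CPM in late myocytes, 1.53-fold higher (log2 0.61, 0.49 to 0.73). File values of early and late myocytes did not overlap for either gene. Ncam1 was ordered like Cdh2, with 1336, 1768 and 1979 CPM (log2 0.57, 0.52 to 0.61). Beside a median of -0.35 over all genes, Cdh2 and Ncam1 lay above 90.8% and 90.2% of genes and Cdh15 above 18.0%.

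Cdh13 had a log2 ratio of 0.15 (0.08 to 0.21). Cdh6 and Cdh4 rested on 4.75 to 11.2 UMIs per file and class, and their intervals included 0. Late myocytes had more Malat1 (10539 against 7339 CPM) and fewer Malat1-poor cells (6.97% against 20.9%). Without Malat1-poor cells the log2 ratios were -2.11 for Cdh11, -0.88 for Cdh15, 0.55 for Cdh2 and 0.48 for Ncam1. Late myocytes also had less Top2a (23.5 against 289 CPM), Mki67 (12.04 against 151 CPM) and Pax7 (5.61 against 20.1 CPM). At high Myog without Pax7, cycling against non-cycling cells had 159 against 225 CPM of Cdh2 and 93.6 against 69.96 CPM of Cdh15. With Pax7 these were 219 against 221 CPM and 83.9 against 77.5 CPM. The part of cycling and Pax7 in the early and late values of all these genes was not tested.

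**Figure D3:**
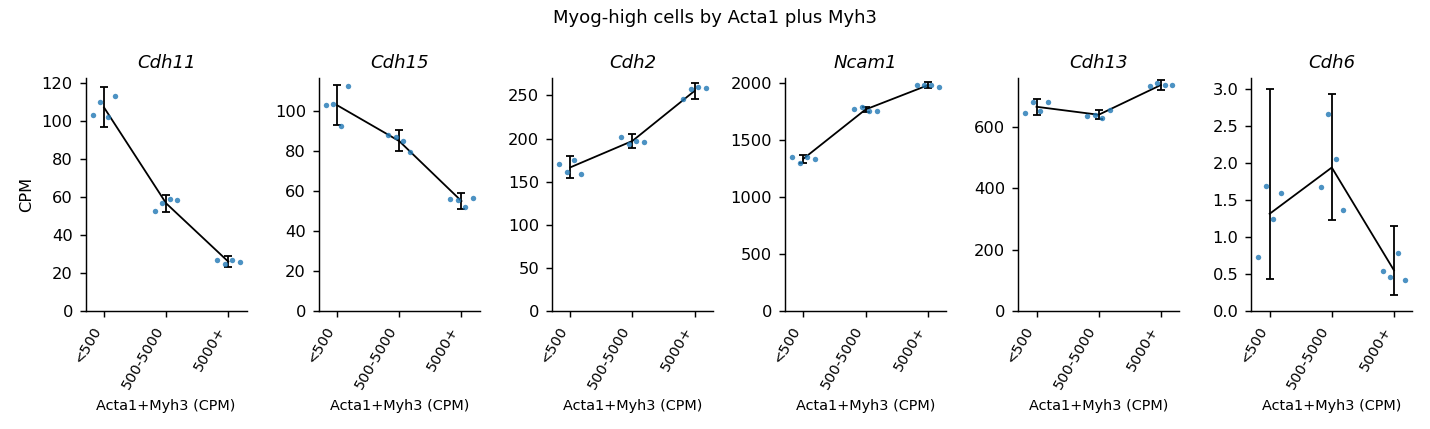
Level (CPM) of 6 genes in Myog-high cells with under 500, 500 to 5000 and at least 5000 CPM of Acta1 plus Myh3; lines are means of 4 files, bars 95% counting intervals, points single files. Cdh15 goes from 103 to 55.1 CPM while Cdh2 goes from 167 to 255 CPM.

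Counts in single cells were set against an even spread, 1 gene at a time. Zeros and the variance over the mean both depend on a gene's level, so they do not rank genes by evenness. In Myog-low cells thinned to 5000 UMIs, 57.5% had no Cdh11 UMI, where a Poisson count with the same mean in every cell would leave 37.1%, and the variance was 2.87 times the mean. The 10% of cells with most Cdh11 held 50.2% of its UMIs. Cdh15, at a mean of 0.437 UMIs per cell against 0.993 for Cdh11, had 67.4% zeros against 64.6% and a variance of 1.24 times the mean. Cdh6, at a mean of 0.102 UMIs per cell, had 93.4% zeros against 90.3% and a variance of 2.14 times the mean.

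Cdh2 (39.9% zeros against 32.0%), Cdh13 (14.99% against 2.47%) and Ncam1 (5.43% against 0.740%) were seen in most cells. Their variances were 1.63, 3.57 and 2.91 times the mean, at means of 1.14, 3.70 and 4.91 UMIs per cell. The share of cells with Cdh11 was similar with and without Cdh6, and the intervals over cells overlapped. Of Myog-low cells with a Cdh6 UMI, 45.0% (37.0 to 53.1) also had Cdh11, and of those without, 42.3% (40.2 to 44.4). Pax7 was found in 49.3% (41.2 to 57.3) of cells with Cdh6 and 36.1% (34.1 to 38.2) without, and in 42.7% (39.6 to 45.8) of cells with Cdh11 and 32.8% (30.3 to 35.4) without. Cdh2 was found in 65.4% (62.4 to 68.3) of cells with Cdh11 and 56.1% (53.5 to 58.8) without. Cdh15 was found in 33.3% (30.4 to 36.3) of cells with Cdh11 and 32.1% (29.7 to 34.7) without.

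Myog-low cells with Cdh11 in any file (1946) and without it (626) were of like depth, with medians of 10817 and 11047 UMIs. They differed in Malat1-poor cells (13.1% against 29.2%), in summed fibroblast markers (225 against 177 CPM) and in pericyte markers (117 against 79.2 CPM). Within the fibroblast list the difference lay in Col3a1 (172 against 123 CPM). Ly6a went slightly the other way (50.8 against 53.6 CPM), and the other markers were under 1 CPM. Pax7 was found in 88.6% and 79.2% of them, and 52.8% and 59.4% were cycling. Within the pericyte list, Rgs5 was at 11.4 CPM with Cdh11 and 3.49 CPM without, and Notch3 at 95.1 and 68.0 CPM.

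**Figure D4:**
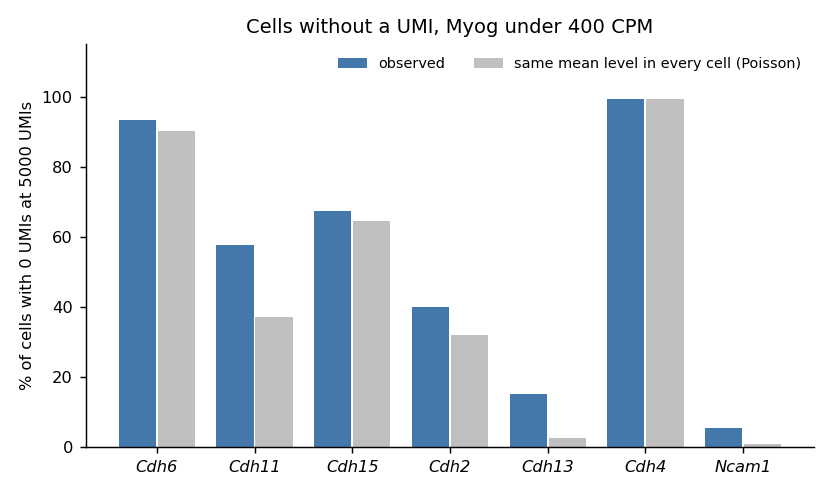
Percent of Myog-low cells with no UMI of each gene after thinning to 5000 UMIs, observed and for a Poisson count with the same mean in every cell. In percentage points the gap is widest for Cdh11, 57.5% against 37.1%, and Cdh15 has 67.4% against 64.6%. The gap depends on a gene's level and does not rank genes by evenness.

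Cells poor in the nuclear RNA Malat1 (768 cells under 2000 CPM) differed from the other 4713 in most of the 7 genes, and the M-cadherin gene stood apart. Cdh13 was at 222, 225, 225 and 223 CPM in them against 816, 816, 817 and 821 CPM in the others, 3.64-fold lower (log2 -1.86, -1.93 to -1.79). Ncam1 (-1.37), Cdh11 (-1.27) and Cdh2 (-1.15) were also called lower, so 4 of 7 were called where 11.1% of all genes were called lower and 0.031% higher. That count depended on the setting: with the threshold at 4000 CPM of Malat1, only Cdh13 (-1.14) was called, with Ncam1 at -0.95, Cdh11 at -0.84 and Cdh2 at -0.79. With median-ratio scaling 2 were called, Cdh13 and Ncam1, with Cdh11 at -0.98 and Cdh2 at -0.85. Cdh15 had 98.6, 96.4, 88.3 and 91.9 CPM against 78.7, 78.9, 75.5 and 77.7 CPM, a log2 ratio of 0.27 (0.16 to 0.38). Over the 4 classes of Malat1 from under 2000 to at least 10000 CPM, Cdh13 took 224, 615, 815 and 1031 CPM and Ncam1 580, 1133, 1452 and 1921 CPM, whereas Cdh15 took 93.8, 76.2, 76.4 and 80.5 CPM.

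Over all genes, the ratio was lower for longer genes. Genes under 30 kb (7251) had a median log2 ratio of 0.01, and 2.11% were called lower. Genes of 30 to 100 kb had a median of -0.49. Genes of 100 kb or more (1856) had a median of -0.97, and 47.5% of them were called lower. Cdh15 is the only one of the 7 genes under 100 kb, so all 4 calls fell among the 6 longer ones. The other 2 of these were not called, with Cdh4 (457 kb) at -0.26 (-0.74 to 0.40) and Cdh6 (145 kb) at -0.48 (-0.83 to -0.09). Whether reads in introns were counted is not given in the sources used here. Within the Myog classes, Cdh13 was at -2.08 with low and -1.58 with high Myog, Ncam1 at -1.26 and -1.24, Cdh2 at -1.17 and -1.13, and Cdh15 at 0.16 and 0.47. Cdh11 was at -1.65 with low Myog and was not called with high Myog (-0.75). Cdh6 was at -0.88 with low Myog, and with high Myog it rested on 3 UMIs per file in the Malat1-poor cells.

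**Figure D5:**
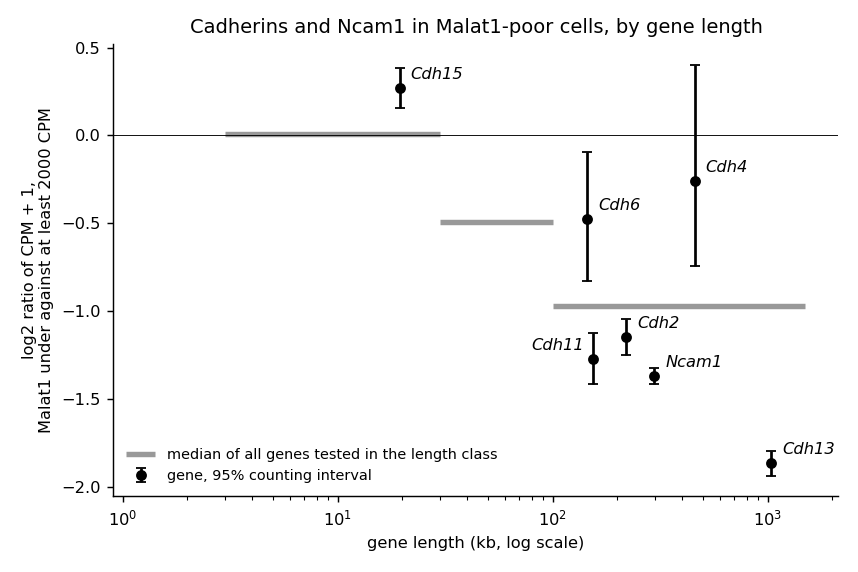
Log2 ratio of CPM plus 1 between Malat1-poor and other cells against gene length (kb, log scale); points are the 7 genes with 95% counting intervals, grey bars the median of all genes tested under 30 kb, at 30 to 100 kb and at 100 kb or more. Cdh15 at 19.4 kb is at 0.27 and Cdh13 at 1041 kb at -1.86.

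Other genes of the same systems were followed in the Myog comparison, at the same 2-fold rule. Of all genes tested, 7.71% were called higher there and 17.2% lower, and the counts below stand beside these shares. Of 17 other cadherins 4 had enough UMIs, and 2 were called lower, Cdh18 (14.1 to 1.02 CPM, log2 -2.91) and Cdh10 (5.60 to 0.639 CPM, log2 -2.01). The other pair, Cdh23 and Cdh24, had -0.58 and -0.57. Cdh10, Cdh18 and the uncalled Cdh24 are all type II cadherins. The epithelial and endothelial cadherins Cdh1 and Cdh5 were among the 13 under the minimum. That minimum was counted over all kept cells, so a gene as scarce at high Myog as Cdh10 could pass it through its UMIs at low Myog. The count of 2 among 4 depends on this filter, and so do the counts in the lists below. Among those, Arvcf was at 0.868 CPM with high Myog and Nrcam at 1.52 CPM with low Myog.

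Of 12 catenins and junction linkers 11 were tested, with a median of -0.13. Of these 1 was called higher and 3 lower, where 7.71% and 17.2% of all genes were. Pkp4, a plakophilin of the p120 family, was at 118 against 48.4 CPM (log2 1.27). Afdn, which links nectins to actin, was at 7.84 against 26.5 CPM (-1.64), Jup (plakoglobin) at -1.25 and Arvcf, a p120 relative, at -1.17. Ctnnb1 (beta-catenin), which joins the tail of classical cadherins to alpha-catenin, had -0.43 and was not called.

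Of 10 genes around Ncam1, 6 were tested, with a median of 0.96. Of these 3 were called higher and 0 lower, where 7.71% and 17.2% of all genes were. Fyn, the Src-family kinase that works with Ncam1, was at 213 against 44.5 CPM (log2 2.23). Nrcam, a related adhesion protein, was at 5.65 against 1.52 CPM (1.40). St8sia2, the enzyme that adds polysialic acid to Ncam1, was at 187 against 91.0 CPM (1.03, 0.96 to 1.10, on both sides of 2-fold). Gfra1, a receptor for GDNF that can bind Ncam1, had 0.89. Of 18 other adhesion genes of myoblasts 17 were tested, with a median of 0.04; 1 was called higher, Jam3 (284 against 68.5 CPM, 2.04). Called lower were Kirrel (-2.62), Vcam1 (-2.42), Boc (4.88 against 22.5 CPM) and Cd9 (-1.10); the last was outside the rule for named genes and is given to complete the count.

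Likeness of pattern was measured as Pearson's r of log2(CPM plus 1) over the 12 cell groups, which come from the same libraries, over all genes tested, and is a description only. Closest to Cdh11 were Robo1 (0.98), Smarca2 and Irf2. Closest to Cdh6 were Ggct (0.98), Dlc1 and Gcnt2. Ncam1 was closest to Brwd1 (0.98), Platr14 and 2900097C17Rik. Cdh13 was closest to Trip11 (0.97), Ascc3 and Mical2, Cdh2 to Lpin3 (0.95), Heatr5b and Nol4, Cdh15 to Gem (0.92), Zfp286 and Lrrc17, and Cdh4 to Dph5 (0.90), Irf2bp2 and Gpatch2l. These matches were picked from 12895 genes over 12 groups, so high values come partly from that choice. Cdh4 had at most 29.5 UMIs per file in a group, and Cdh15 spanned only 0.58 log2 units. The matches of both are therefore weakly determined. Among the 7 genes themselves the highest values were 0.78 between Cdh6 and Cdh11 and 0.77 between Cdh2 and Cdh13, and the lowest was -0.60 between Cdh6 and Ncam1.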

How the data were processed

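UMI counts per gene and cell were used as the authors deposited them, 1 10x Genomics matrix per file. The file headers name Cell Ranger 7.1.0, and the submitters' processing notes name Cell Ranger 3.1.0 with the builds mm10 and GRCm39, so the version and build used are not settled. Files hold no row for tdTomato. Cells, classes and the 7 genes were computed as the report states, with Python 3.11.15, numpy 2.4.6, scipy 1.17.1 and pandas 2.3.3. Ratios are log2 of CPM plus 1, averaged over files, with exact conditional binomial intervals at the mean count of 1 file. Levels have exact Poisson intervals, and shares of cells Clopper-Pearson intervals, after thinning to 5000 UMIs (5197 cells, 284 left out as shallower). Intervals of levels and ratios cover counting error only, and those of shares take the cells of 1 sample as units. None covers the spread between cultures. Count models across replicates were not run, because the 4 files hold the same cells. Doublets were not called. On simulated counts for the Myog comparison over 12895 genes, 92.0% of 200 changed genes passed 2-fold and 0 unchanged genes did. That share depends on the size of change simulated, and the simulation does not measure the spread between cultures. Gene lengths and positions came from GENCODE M21, matched by Ensembl ID (32235 of 32285). The genes and lists were chosen with earlier results of these data known. Named genes are the 7, up to 4 per list with the largest Myog ratio, and the 3 most alike in pattern. Other scalings, filters, thresholds and left-out files were tried.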

Additional observations from a re-analysis of the deposited data

Results flagged for a closer look

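Over the 4 files, 63 values of the 7 genes (levels by class and log2 ratios) were compared, and in 1 a single file lay far from the other 3 relative to the range. The log2 ratio of Ncam1 between late and early myocytes was 0.61 in replicate 2, beside a mean of 0.57. It lies inside the counting interval of 0.52 to 0.61. Chance alone gives such a flag in about 5% of values.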

How the results depend on the processing

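No paired analysis was possible because the 4 files hold the same cells and form 1 group; the planned count models and the block were not run for the same reason. Leaving out each file in turn kept the counts at 2 lower and 0 higher by Myog, 1 by Pax7, 0 by cycling and 1 in late myocytes. Scaling by the median ratio gave 1 gene higher with Myog (Ncam1) and 2 in late myocytes (Cdh2 and Cdh11), and in Pax7-negative cells, an alternative chosen after seeing the data, 1 was higher with Myog (Ncam1). In non-cycling cells, also chosen after seeing the data, the Myog counts were 2 and 0. By Pax7 the count was 0 at a 3-fold threshold and 2 in non-cycling cells (Cdh6 and Cdh11). In late myocytes it was 2 with a pseudocount of 0.1 (Cdh6 and Cdh11) and 2 with bins at 200 and 10000 CPM (Cdh11 and Cdh15). Several signs turned. By Myog, median-ratio scaling gave 0.23 for Cdh2, 0.15 for Cdh13 and 0.17 for Cdh15, and Pax7-negative cells gave 0.19 for Cdh2 and 0.35 for Cdh13. By Pax7, Cdh2 was at -0.029 without Malat1-poor cells and Cdh15 at -0.11 with median-ratio scaling. By cycling, Cdh13 was at -0.0059 as a mean of cell CPM, -0.035 without Malat1-poor cells and -0.12 with cycling at 100 CPM. In late myocytes Cdh6 was at 0.17 with bins at 200 and 10000 CPM, and Cdh4, on few UMIs, at up to 0.36 when thinned. Of the 4 genes lower in Malat1-poor cells, 1 was called at 4000 CPM and 2 with median-ratio scaling. The cause was not tested. Over all alternatives Cdh6 ranged from -3.87 to -2.76 and Cdh11 from -2.49 to -1.54 by Myog, and the remaining counts by Myog, Pax7, cycling and late myocytes were within 1.5 times. Depth limits Cdh4 throughout and Cdh6 in cells with high Myog.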
